A study of Mus musculus with 16 samples.

Results

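The 4 libraries described here hold RNA of untreated mouse cortical neurons that were kept without microglia, 4 of the 16 libraries in the series, and were chosen by the treatment group named in their labels. The neurons were taken from C57BL/6 embryos of day 15 to 16, plated on poly-D-lysine in a serum-free neuronal medium with a B-27 supplement and grown for 14 days. The other 12 libraries form 3 groups of 4, all made from the same kind of culture at the same age. Fibril-loaded neurons alone had received 0.1 µM of fluorescently labelled α-synuclein fibrils for 16 h, untreated neurons with microglia had been co-cultured with microglia for 6 h, and fibril-loaded neurons with microglia had received both. Whether each library had its own culture or animal is not stated in the labels, so every spread and p-value measures the difference between these libraries, which may be technical. Nor do they give replicate numbers: replicates 1 to 4 are only names, given in accession order.

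Dissociated embryonic cortex gives cultures in which glutamatergic projection neurons predominate, with a minority of GABAergic interneurons and with precursors that go on to make astrocytes and oligodendrocytes. In the weeks after plating such neurons extend axons and dendrites, form synapses and fire spontaneously, and they exchange fetal subunits of several receptors and transporters for mature ones. The libraries were made with a kit that primes at the poly(A) tail and reads the 3′ end of each transcript. Each transcript therefore gives counts irrespective of its length, and levels are given as CPM, counts per 1000000 counts of the library, after TMM scaling, a correction for differences in library composition. The total counts the genes kept for the tests described below, and ribosomal RNA reads stay in it.

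The libraries held 7881788 to 13986374 counts over 16934 genes, and 10968 to 12733 genes had a count in a library. A count of 3 corresponds to 0.220 to 0.386 CPM, which limits what can be said of a gene at 0. Rn45s, the ribosomal RNA precursor, took 26.8% of the counts in replicate 1 and 11.6%, 14.6% and 15.1% in replicates 2, 3 and 4. Replicate 1 also stood apart in its genes. Among the 3788 genes at a mean of 50 CPM or more it held the lowest of the 4 values for 39.2%, and the 20 pan-neuronal genes summed to 5362 CPM in it against 10988 to 11872 CPM in the others. For this reason many levels are given by library or also as a mean without replicate 1.

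The markers of the neuronal label were present in all 4 libraries. Tubb3, the neuronal β-tubulin, was at 235, 302, 186 and 512 CPM in replicates 1 to 4. Nrgn, which encodes neurogranin, a calmodulin-binding protein of excitatory dendrites, was at 4765, 6335, 4459 and 6436 CPM. Thy1, a surface glycoprotein of projection neurons, was at 326, 353, 232 and 294 CPM. Nrgn and Thy1 varied by 1.44- and 1.52-fold between the lowest and the highest library, whereas Tubb3 was 2.75-fold higher in replicate 4 than in replicate 3.

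Of the 16934 genes, 9322 had counts in all 4 libraries and 2458 in none. Apart from these 2458, 64 genes, Rn45s among them, were at a mean of 1000 CPM or more and carried 30.4% of the summed level. Much of that share was Rn45s, which took 11.6% to 26.8% of the counts of a library. Another 1876 genes at 100 to 1000 CPM carried 42.5%. A further 7137 genes lay at 10 to 100 CPM and 4268 at 1 to 10 CPM. With Rn45s left out of the library total, the 100 most abundant genes took 19.7% to 21.1% of the counts in each library, a narrow range that includes replicate 1. The genes encoded by the mitochondrial genome are not analysed here.

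The most abundant transcript after Rn45s was Malat1, a nuclear noncoding RNA, at 16718, 26904, 28508 and 15422 CPM in replicates 1 to 4. Meg3, an imprinted noncoding RNA made by neurons, followed at 6416 ± 2535 CPM (SD, n = 4). It was lowest in replicate 1, at 3184 CPM, and averaged 7493 CPM in the other 3. Nrgn, at 5499 ± 1032 CPM (SD, n = 4), was the most abundant protein-coding transcript.

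Other leading transcripts included genes of calcium signalling and the cytoskeleton. Camk2n1, an inhibitor of the calmodulin-dependent kinase CaMKII, was at 2766 ± 602 CPM (SD, n = 4). Actb, cytoplasmic β-actin, was at 4877 ± 1116 CPM, and Tubb2b, a β-tubulin of young neurons, at 3667 ± 1110 CPM (SD, n = 4 each). Actin and tubulin genes each belong to families of near-identical coding sequence, so the split between family members is uncertain for reads that fall in it. How many of these 3′ reads do so was not tested.

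Some leading transcripts differed between replicate 1 and the other libraries. Fth1, the heavy chain of ferritin, was at 5231 CPM in replicate 1 and 2795, 2362 and 1755 CPM in the others. Ckb, brain creatine kinase, was likewise highest in replicate 1, at 3442 CPM against 1280 to 1669 CPM. Psap, the precursor of the saposins of the lysosome, went the other way, at 711 CPM in replicate 1 and 2977 to 3645 CPM in the rest. Hsp90ab1, a chaperone, and Atp1b1, a subunit of the sodium pump, were at 2123 ± 423 and 2102 ± 397 CPM (SD, n = 4 each), the latter 2292 CPM without replicate 1.

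**Figure D1:**
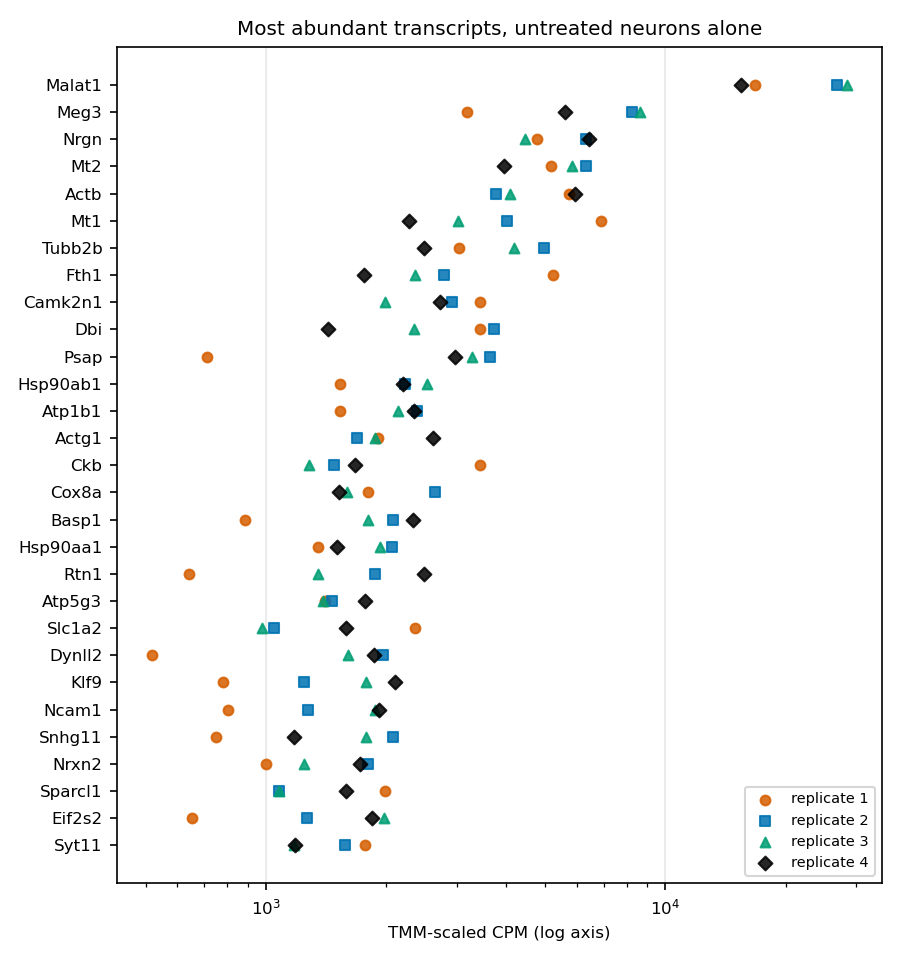
TMM-scaled CPM (log axis) of transcripts among the 30 most abundant in each of the 4 libraries of untreated neurons alone, with 1 symbol per replicate. Rn45s, predicted gene models and genes not reported here are left out. Malat1 lies at 15422 to 28508 CPM, above all others, and replicate 1 is the lowest point for Meg3 and Psap and the highest for Mt1, Fth1 and Ckb.

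Both common metallothioneins, small metal-binding proteins of astrocytes and other cells, stood among the 10 most abundant transcripts. Mt2 was at 5172, 6313, 5850 and 3935 CPM and Mt1 at 6889, 4005, 3021 and 2275 CPM in replicates 1 to 4. The ratio of Mt2 to Mt1 was 1.58, 1.94 and 1.73 in replicates 2 to 4 and 0.751 in replicate 1, the only one of the 4 in which Mt1 was the higher. Metallothionein genes are known for metal response elements in their promoters, and the promoters of this neighbouring pair are shown for that reason. They come from RefSeq (GRCm38.p6), each 300 bases, from 250 bases before the annotated start of the transcript to 50 after it, on the plus strand, at chr8:94178839-94179138 for Mt1 and chr8:94172368-94172667 for Mt2. Capitals mark each match, on either strand, to the core of the metal response element, TGCACNC or TGCGCNC.
Mt1 promoter: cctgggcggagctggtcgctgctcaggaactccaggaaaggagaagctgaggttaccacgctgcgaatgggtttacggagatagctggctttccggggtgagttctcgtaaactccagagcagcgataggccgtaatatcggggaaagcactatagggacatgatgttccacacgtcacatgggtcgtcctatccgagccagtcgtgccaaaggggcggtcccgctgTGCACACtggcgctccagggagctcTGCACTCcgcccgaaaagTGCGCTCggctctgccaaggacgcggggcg
Mt2 promoter: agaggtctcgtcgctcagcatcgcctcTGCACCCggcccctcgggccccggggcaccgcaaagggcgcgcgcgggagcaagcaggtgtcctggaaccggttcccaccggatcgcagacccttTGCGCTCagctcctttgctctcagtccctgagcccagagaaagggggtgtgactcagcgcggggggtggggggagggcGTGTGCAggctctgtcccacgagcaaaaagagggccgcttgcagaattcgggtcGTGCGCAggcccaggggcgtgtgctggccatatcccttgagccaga
The Mt1 promoter held 3 matches and the Mt2 promoter 4. Of 32851 RefSeq promoters of this length, 25.7% held at least 1 match, 1.97% at least 3 and 0.517% at least 4.

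Pan-neuronal transcripts were present throughout: all 20 listed genes had counts in every library. Their summed level was 10006 ± 3122 CPM (SD, n = 4) and 11554 ± 492 CPM without replicate 1 (SD, n = 3), and 16 of the 20 were lowest in replicate 1. Snhg11, a neuronal noncoding RNA, Syt1, the calcium sensor of synaptic vesicles, and Stmn2, a growth cone regulator of microtubules, led the list at 1448 ± 599, 1210 ± 484 and 828 ± 447 CPM (SD, n = 4 each). Without replicate 1 these means were 1680.0, 1428 and 999 CPM. Map2, the dendritic microtubule protein, was even across the libraries, at 587, 759, 754 and 799 CPM. Rbfox3, which encodes the nuclear antigen NeuN, was at 183, 389, 322 and 607 CPM. In bulk libraries, fewer cells of a type and less RNA per cell cannot be told apart.

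Transcripts of excitatory neurons prevailed over those of inhibitory neurons, with Slc17a7 at 2.78 to 48.7 times the level of Gad1 in the 4 libraries. Slc17a7, the vesicular glutamate transporter of cortical projection neurons, was at 115, 671, 369 and 354 CPM. Slc17a6, its subcortical and developmental counterpart, was at 40.0, 33.4, 29.2 and 24.9 CPM. Slc17a7 was thus 12.7 to 20.1 times higher than Slc17a6 in replicates 2 to 4 and 2.87 times higher in replicate 1. Camk2a and Camk2b, the subunits of CaMKII, were at 1094 ± 252 and 674 ± 335 CPM (SD, n = 4 each), with Camk2b at 192 CPM in replicate 1 and at a mean of 835 CPM in the others. The 15 genes of the excitatory list summed to 8850 ± 1931 CPM, of which Nrgn took 62.1%, and to 3352 ± 1046 CPM without Nrgn (SD, n = 4 each). Without replicate 1 these sums were 9592 and 3848 CPM. In replicate 1, 10 of the 14 genes other than Nrgn were at their lowest.

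Markers of upper and deep cortical layers were both present. The 12 upper-layer genes summed to 1602 ± 250 CPM and the 14 deep-layer genes to 1234 ± 139 CPM (SD, n = 4 each), and in replicate 1 they were 1.02 and 1.19 times the mean of the rest. Rorb, a nuclear receptor of layer 4 that astrocytes also express, was at 828 CPM in replicate 1 and 287 to 319 CPM in the others. Pou3f1 and Cux1, transcription factors of upper-layer neurons, were at 412 ± 171 and 119 ± 8.44 CPM (SD, n = 4 each). Cux2, of the same list, averaged 18.8 CPM. Replicate 1 was highest for 3 of the 12 upper-layer genes and lowest for 5. Among the latter was Inhba, at 18.2 CPM against a mean of 364 CPM in the others. Of all genes at 50 CPM or more, replicate 1 was highest for 26.0% and lowest for 39.2%, and 7 of the 12 reached that level. The even upper-layer sum thus joined genes higher and lower in replicate 1, in shares near those of all genes.

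Among deep-layer genes, Pcp4, a calmodulin regulator, and Foxp1, a transcription factor also found in striatal neurons, were highest, at 267 ± 61.4 and 262 ± 156 CPM (SD, n = 4 each). Foxp1 was at 51.8 CPM in replicate 1 and averaged 331.5 CPM in the others. Bcl11b and Fezf2, which specify subcerebral projection neurons, were at 50.4 ± 18.2 and 28.5 ± 18.6 CPM, and Tbr1, which marks layer 6, at 36.0 ± 34.0 CPM (SD, n = 4 each). Fezf2 and Tbr1 were both lowest in replicate 1, at 5.27 and 6.91 CPM. Nfia and Nfib, listed with the deep layers but also used by glial precursors, were at 468 and 447 CPM in replicate 1 and at 101 to 167 CPM in the other libraries. The even deep-layer sum therefore joined genes that were high in replicate 1 with genes that were low in it. Replicate 1 was highest for 3 of the 14 and lowest for 6. These counts were again near the 26.0% and 39.2% of all genes at 50 CPM or more, a level that 6 of the 14 reached.

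Of 10 measured markers of subplate and Cajal-Retzius neurons, the earliest-born cells of the cortex, Nr4a2 carried 78.6% of the summed level. Lhx1, Lhx5 and Ebf2, transcription factors of Cajal-Retzius cells, had no count in the 4 libraries, and Reln, the signalling protein those cells secrete, was at 3.57 ± 3.81 CPM (SD, n = 4).

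Inhibitory transcripts were detected but uneven. Gad1 and Gad2, which make GABA, were at 14.4, 51.6, 7.58 and 128 CPM and at 7.03, 39.5, 45.9 and 146 CPM. Slc32a1, which loads GABA into vesicles, was at 4.33, 33.7, 10.4 and 45.9 CPM. Replicate 4 was highest for all 3 genes. The summed level of Slc17a7 and Slc17a6 was 7.23, 7.73 and 7.45 times that of Gad1 and Gad2 in replicates 1 to 3 and 1.39 times in replicate 4. The 19 measured genes of the inhibitory list summed to 282 ± 156 CPM (SD, n = 4), and 327 CPM without replicate 1.

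Interneuron subtype markers were low, with Cck as the exception. Cck, a peptide that cortical projection neurons make as well as a class of interneurons, was at 698, 2655, 925 and 1119 CPM and took 88.2% of the list. The other 13 genes summed to 180 ± 79.2 CPM (SD, n = 4). Sst and Pvalb, which mark the largest interneuron classes, averaged 13.9 and 16.9 CPM. Pvalb had 51.3 CPM in replicate 4, 15.8 CPM in replicate 2, 0.351 CPM in replicate 1 and none in replicate 3. Vip and Htr3a, markers of another class, had no count in any of the 4.

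Markers of other transmitter types were close to the detection limit. Of the 5 measured, Slc18a2, the vesicular monoamine transporter, averaged 6.03 CPM and Th, which makes dopamine precursors, 1.96 CPM, all of it in replicate 1. Slc5a7, Slc6a3 and Slc6a4, the plasma membrane transporters for choline, dopamine and serotonin, had no count. Genes shared with hippocampus and striatum were higher, led after Foxp1 by the enkephalin precursor Penk, at 136 ± 105 CPM, and the transcription factor Meis2, at 135 ± 41.1 CPM (SD, n = 4 each). Penk was at 22.1 CPM in replicate 1 and averaged 174 CPM in the others.

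Astrocyte transcripts were abundant in all 4 libraries and highest in replicate 1. The 24 genes summed to 33473 CPM there and to 19272, 16082 and 15336 CPM in replicates 2 to 4. With the metallothioneins Mt1, Mt2 and Mt3 left out, the sums were 21245, 8752, 7145 and 9031 CPM, and each of the 21 remaining genes was highest in replicate 1. By comparison, 26.0% of the genes at 50 CPM or more were highest in that library. Slc1a2 and Slc1a3, the glutamate transporters of astrocytes, were at 2364 and 1417 CPM in replicate 1 and averaged 1205 and 301 CPM in the other 3. Aldoc, a glycolytic enzyme of astrocytes, was at 2118 CPM against 512 to 628 CPM. Gfap, the intermediate filament of mature and reactive astrocytes, was at 184, 76.1, 96.4 and 13.2 CPM, and Aqp4, the water channel of astrocyte endfeet, at 129, 30.8, 13.5 and 46.0 CPM. What part the glial share of replicate 1 had in its lower neuronal levels was not tested.

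Oligodendrocyte precursors were represented by all 15 listed genes. They summed to 4014 CPM in replicate 1 and to 1478, 1729 and 1538 CPM in the others. Olig1 and Olig2, which direct cells into this lineage, averaged 399.8 and 209.5 CPM, and Pdgfra, the growth factor receptor of the precursors, 86.7 CPM, with 65.3 to 120 CPM in every library. Gpr17, a receptor of precursors about to differentiate, was at 91.3, 109, 197 and 134 CPM and so was not highest in replicate 1. Ptprz1, a receptor phosphatase shared with radial glia, was, at 1675 CPM against 265 to 340.5 CPM. Ptprz1 took 29.4% of the summed mean level of the list, so the high sum of replicate 1 rests in large part on this gene. Replicate 1 was highest for 10 of the 15 genes, and for 26.0% of all genes at 50 CPM or more, a level that 8 of the 15 reached.

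Genes of forming oligodendrocytes were lower and those of mature myelin nearly absent. The 15 genes summed to 600.2 ± 158 CPM (SD, n = 4), or 545 CPM without replicate 1. Mbp, a main protein of myelin, was at 139 ± 43.8 CPM, and Bcas1, which marks newly forming oligodendrocytes, at 111 ± 67.1 CPM (SD, n = 4 each). Opalin and Mal, genes of compact myelin, had no count.

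Microglial transcripts lay near the floor. The 19 measured genes summed to 33.5, 17.1, 27.8 and 8.001 CPM. C1qa, C1qc, Tmem119, P2ry12, Aif1, Itgam, Fcer1g, Selplg and Gpr34 were at 0 in all 4 libraries. Cx3cr1, the fractalkine receptor of microglia, had 10.6 CPM in replicate 2 and none in the others, and Csf1r, the receptor on which microglia depend, reached 6.94 CPM in replicate 3. In the co-culture groups the same list ranged from 15.3 to 800.2 CPM without fibrils and from 16.9 to 1470 CPM with them. Vascular and fibroblast genes summed to 7.46 ± 5.82 CPM (SD, n = 4), and Ttr, the choroid plexus marker, and Alas2, of red cells, were at 0.

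**Figure D2:**
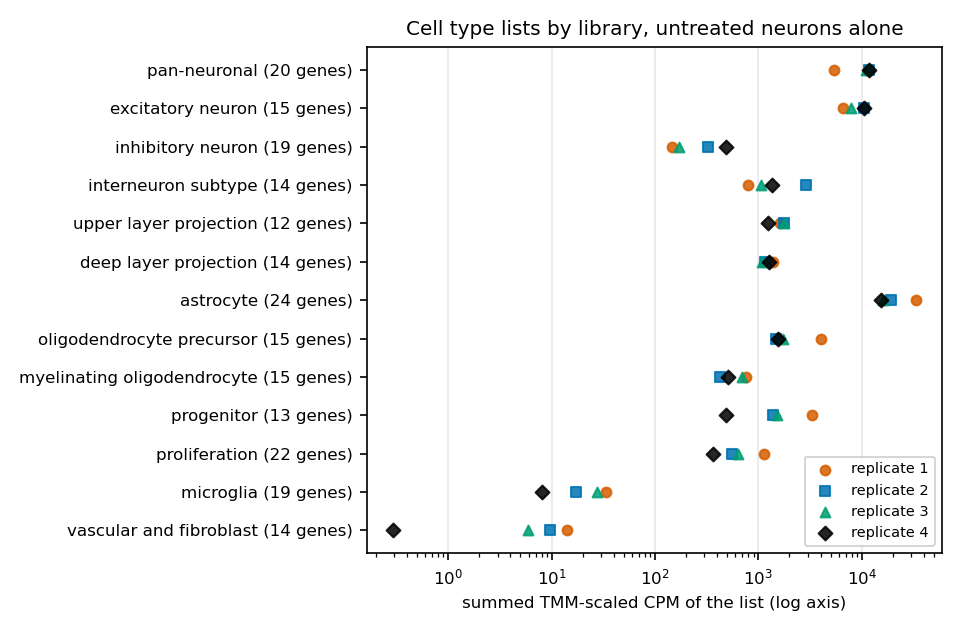
Summed TMM-scaled CPM (log axis) of 13 cell type lists in each of the 4 libraries of untreated neurons alone, with the number of measured genes of each list. Replicate 1 is lowest for pan-neuronal genes, at 5362 CPM, and highest for astrocyte genes, at 33473 CPM, and the microglial sums stay at 8.001 to 33.5 CPM.

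Precursor and cell cycle transcripts persisted at 14 days and were lowest in replicate 4. Vim, an intermediate filament of radial glia and astrocytes, was at 1693, 247, 279 and 37.4 CPM. Nes, nestin, the filament of neural stem cells, was at 418, 249, 373 and 22.02 CPM, and Sox2, a stem cell transcription factor, at 188, 92.8, 70.1 and 8.66 CPM. Sox11, a transcription factor of young neurons, differed little, at 220, 217, 227 and 209 CPM. The 22 proliferation genes all had a mean above 1 CPM and summed to 1126, 553, 643 and 365 CPM, led by Top2a, which untangles replicated DNA, at 109 ± 59.6 CPM (SD, n = 4). Replicate 1 was highest for 17 of the 22 and replicate 4 lowest for 10. Among all genes at 50 CPM or more, replicate 1 was highest for 26.0% and replicate 4 lowest for 25.3%. Only 4 of the 22 reached that level.

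AMPA receptor genes, which carry fast excitatory transmission, were led by Gria2, the subunit that makes the channel impermeable to calcium. Gria2 was at 562, 720.3, 651 and 643 CPM, with a coefficient of variation (CV) of 10.04%. Gria1 was at 98.1, 358, 292 and 193 CPM, Gria3 at 79.2 to 176 CPM and Gria4 at 15.1 to 40.5 CPM. Gria2 exceeded Gria1 by 2.01 to 5.73 times. Of the auxiliary subunits, Cacng2, stargazin, and Cacng4 were at 170 ± 88.6 and 162 ± 45.9 CPM and Cnih2 at 94.2 ± 47.3 CPM (SD, n = 4 each). Cacng4, which oligodendrocyte precursors also express, was highest in replicate 1, whereas Cacng2 was lowest there. All 15 AMPA receptor genes were counted in every library, with a sum of 1671 ± 224 CPM (SD, n = 4), or 1772 CPM without replicate 1.

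Among NMDA receptor genes the fetal subunit exceeded the mature one. Grin2b, which predominates before birth, was at 332, 836, 521 and 489 CPM, and Grin2a, which replaces it as synapses mature, at 37.4, 170.4, 94.1 and 206 CPM. Grin2b was higher in all 4 libraries, by 8.88, 4.91, 5.54 and 2.37 times. The obligatory subunit Grin1 was at 104, 361, 319 and 191 CPM. Grin3a, a subunit of immature synapses, averaged 20.2 CPM, and Grin2c, of cerebellar granule cells, 4.35 CPM.

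Kainate receptors were low, with Grik5 at 66.3 ± 39.6 CPM and the auxiliary subunit Neto2 at 48.3 ± 41.0 CPM (SD, n = 4 each), or 83.5 and 38.4 CPM without replicate 1. Grm5, the group I metabotropic receptor of young cortex, was at 110, 119, 61.2 and 163 CPM, and its scaffold Homer1 at 59.3, 117, 99.5 and 201 CPM. Grm7, a presynaptic receptor, averaged 27.3 CPM, and Grm2 1.79 CPM.

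Of 13 measured GABA-A receptor genes, 10 had counts in every library. Gabra2, an α subunit typical of young synapses, was at 142, 229, 131 and 255 CPM. The β subunits Gabrb1 and Gabrb2 were at 153 ± 13.1 and 112 ± 52.1 CPM (SD, n = 4 each), and Gabrb2 averaged 138 CPM without replicate 1. Gabra5, the extrasynaptic subunit, ranged from 6.21 CPM in replicate 1 to 142 CPM in replicate 4. The list summed to 956 ± 277 CPM (SD, n = 4), and 1057 CPM without replicate 1.

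Both subunits of the GABA-B receptor were expressed, Gabbr2 at 401 ± 188 CPM and Gabbr1 at 126 ± 28.0 CPM (SD, n = 4 each), with Gabbr2 the higher by 1.83 to 3.94 times. The chloride transporters that set the direction of GABA responses differed between libraries. Slc12a5, the exporter KCC2 of mature neurons, was at 59.1, 220.2, 120.3 and 240.2 CPM. Slc12a2, the importer NKCC1, which glial cells also express, was at 60.8, 19.4, 20.6 and 51.5 CPM. The exporter was 4.67 to 11.4 times the importer in replicates 2 to 4 and 0.973 times in replicate 1. Glycine receptor genes were near 0 apart from Glrb, the subunit that binds gephyrin, at 60.5 ± 14.5 CPM (SD, n = 4).

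Receptors for modulators were few. Adora1, the inhibitory adenosine receptor, was highest, at 113, 378, 379 and 447 CPM. Chrm1, the muscarinic receptor of cortical pyramidal cells, was at 18.4, 112, 128 and 153 CPM, and it was the only 1 of 13 measured acetylcholine receptor genes at 20 CPM or more. Adrb1, Adra2a and Hrh3 led the 23 monoamine receptor genes, at 82.8 ± 19.3, 44.0 ± 34.7 and 38.6 ± 10.9 CPM (SD, n = 4 each), and 5 of the 23, Htr2a among them, had no count. Cnr1, the cannabinoid receptor, was at 86.0 ± 43.6 CPM (SD, n = 4). Cckbr, a receptor for the peptide product of Cck, was at 137 CPM in replicate 4 and 16.6 to 29.5 CPM in the others.

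Growth factor receptors were led by Ntrk2, the receptor for BDNF that neurons and astrocytes share, at 629, 534, 551 and 806 CPM. The guidance receptors Epha4 and Epha5 followed, at 239.7 ± 129 and 201 ± 43.1 CPM (SD, n = 4 each). Fgfr3 and Fgfr2, receptors typical of astrocytes and precursors, were highest in replicate 1, at 239 and 199.7 CPM against at most 77.7 CPM elsewhere. Ngfr, the low-affinity neurotrophin receptor, had no count.

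Sodium channel genes were led by Scn2a, at 140.3, 298, 229.9 and 159.7 CPM, and Scn8a, at 157, 209, 177 and 184 CPM, the 2 channels of the axon initial segment. Scn3a, the fetal channel, was at 41.0 to 46.5 CPM, and Scn8a was 3.38 to 4.82 times higher. Scn1a, the channel of interneurons and mature neurons, was at 25.2, 59.8, 12.1 and 106 CPM. Scn9a, of peripheral neurons, had no count.

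Calcium channel genes were led by Cacna2d1, an auxiliary subunit, at 332 ± 125 CPM, and Cacna1a, the pore of the presynaptic P/Q-type channel, at 260.2 ± 33.4 CPM (SD, n = 4 each). Cacna1b, the N-type pore, was at 28.1, 142, 83.4 and 73.1 CPM, and Cacna1a exceeded it in every library, by 2.07 to 7.68 times. Cacnb4, the leading β subunit, was at 154 ± 56.8 CPM and the L-type pore Cacna1d at 51.5 ± 15.1 CPM (SD, n = 4 each).

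Of 40 measured genes of voltage-gated potassium channels, 18 had a mean of 20 CPM or more. Kcna1, an axonal channel, was at 117, 321, 226 and 326 CPM, and Kcnq3, of the M-current, at 88.8, 239.7, 204 and 182 CPM. Replicate 1 was lowest for 15 of the 40 members and replicate 4 highest for 18. Among all genes at 50 CPM or more these shares were 39.2% and 29.7%, but only 10 of the 40 members reached that level. The list summed to 1662 ± 504 CPM over 4 libraries and 1886 ± 285 CPM without replicate 1. Kcnj10, the inward rectifier of astrocytes, went the opposite way, at 938 CPM in replicate 1 and 173 to 229.6 CPM elsewhere. Kcnma1, the calcium-activated BK channel, was at 271 ± 101 CPM (SD, n = 4).

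**Figure D3:**
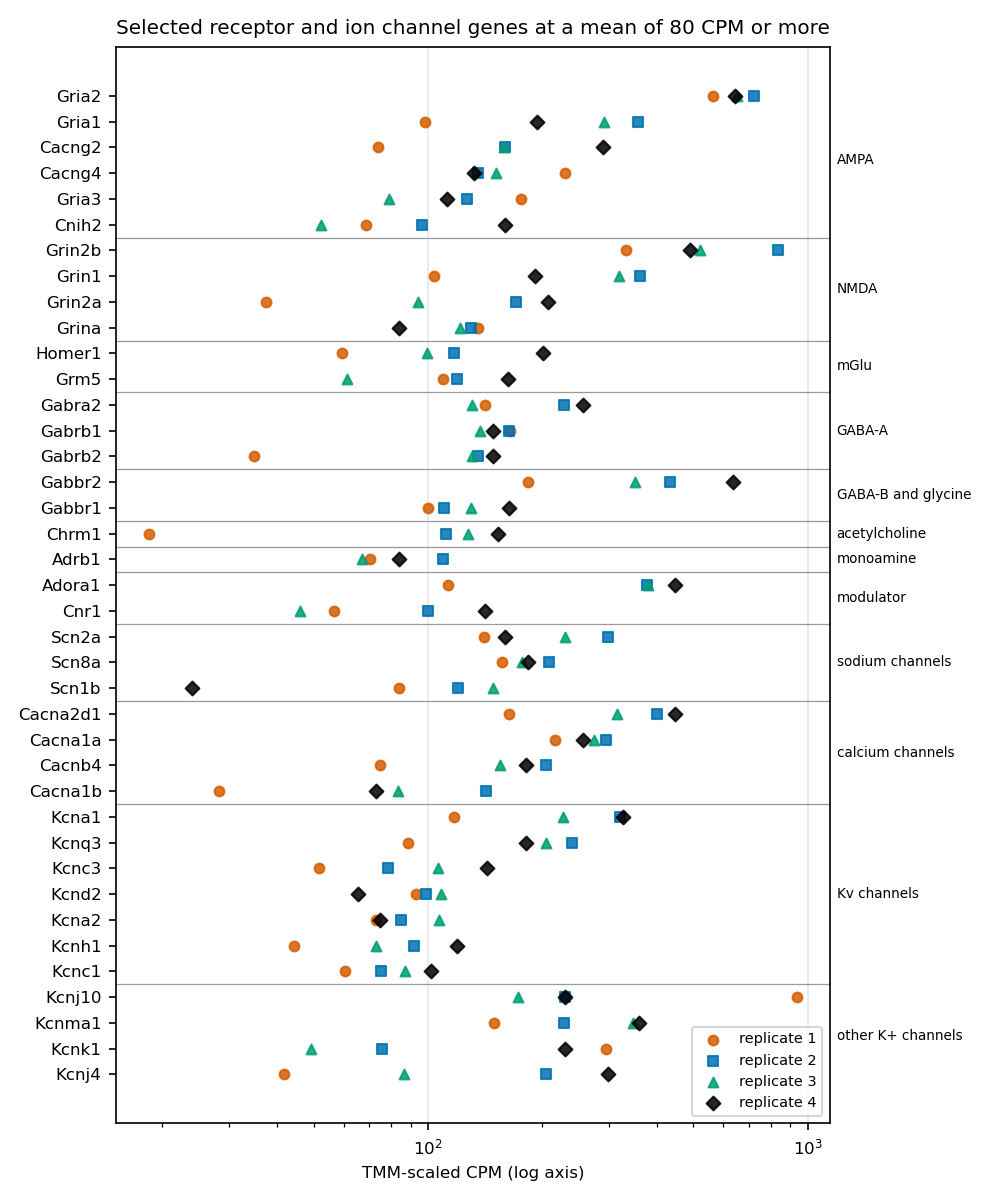
TMM-scaled CPM (log axis) of selected transmitter receptor and ion channel genes with a mean of 80 CPM or more and a count in all 4 libraries of untreated neurons alone, grouped by family with 1 symbol per replicate. Replicate 1 is the lowest point for Grin2a and Chrm1 and the highest for Kcnj10, at 938 CPM.

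Genes of transmitter release and of the postsynaptic density were among the more abundant groups. The 30 presynaptic genes summed to 10826 ± 2427 CPM, or 11964 CPM without replicate 1, with Nrxn2, a presynaptic adhesion molecule, at 1440 ± 382 CPM (SD, n = 4). The 27 postsynaptic genes summed to 20405 ± 4741 CPM, or 22145 CPM without replicate 1, of which Nrgn took 26.9%. Dlg4, which encodes the scaffold PSD-95, was at 123, 764, 532 and 566 CPM. Of the presynaptic genes 22 of 30, and of the postsynaptic ones 16 of 27, were lowest in replicate 1.

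Immediate early genes, which neurons switch on when they fire, were expressed in the untreated state. All 25 had counts in every library, and they summed to 1823, 5052, 4732 and 3835 CPM. Bdnf, the activity-dependent neurotrophin, was at 128, 638, 372 and 544 CPM. Arc, which regulates AMPA receptor trafficking, was at 74.6, 212, 248 and 425 CPM. Npas4, a transcription factor induced by calcium influx, was at 29.8, 303, 232 and 43.0 CPM, and Fos at 93.5, 162, 175 and 73.2 CPM, so that Npas4 and Fos were high in replicates 2 and 3 only, while Arc was highest in replicate 4. Nr4a2, a nuclear receptor, was at 22.4, 281, 271 and 240.0 CPM. Replicate 1 was lowest for 17 of the 25.

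Several of these genes are known targets of the factor CREB, which binds the cAMP response element, and 2 promoters are shown for that reason, as given by RefSeq (GRCm38.p6). That of Fos lies at chr12:85473640-85473939 on the plus strand and that of Nr4a2 at chr2:57123954-57124253 on the minus strand, each written along the gene's own strand. Capitals mark TGACG, the half-site of the element, on either strand.
Fos promoter: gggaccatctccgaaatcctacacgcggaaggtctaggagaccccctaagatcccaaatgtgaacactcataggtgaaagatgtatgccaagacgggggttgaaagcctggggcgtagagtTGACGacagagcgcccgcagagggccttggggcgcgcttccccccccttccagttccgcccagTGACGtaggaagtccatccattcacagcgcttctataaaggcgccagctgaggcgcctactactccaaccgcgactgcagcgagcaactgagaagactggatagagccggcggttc
Nr4a2 promoter: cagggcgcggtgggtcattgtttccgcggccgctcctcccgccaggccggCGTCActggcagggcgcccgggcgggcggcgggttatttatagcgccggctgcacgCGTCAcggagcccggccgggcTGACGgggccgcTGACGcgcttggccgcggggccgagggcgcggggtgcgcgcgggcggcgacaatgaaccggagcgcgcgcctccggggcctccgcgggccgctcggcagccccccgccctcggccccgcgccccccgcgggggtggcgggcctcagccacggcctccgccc
The Fos promoter held 2 matches and that of Nr4a2 4, and 5.01% and 0.231% of the 32851 promoters held at least as many. Of the 20 listed immediate early genes with a promoter entry, 14 held at least 1 match (70.0%), and of all 27025 genes 23.0% did. A gene was counted if any of its promoters held a match, and the 20 listed genes had 31 promoters, more per gene than all genes had. The list also holds known CREB targets, so these percentages are background and no result of the libraries.

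Neuropeptide and granin transcripts were led by Cck and by Vgf, an activity-regulated secretory protein, at 384, 1319, 1084 and 768 CPM. Chgb and Scg2, granins of dense core vesicles, were at 607 ± 315 and 566 ± 240 CPM, and Adcyap1, which encodes the peptide PACAP, at 312 ± 200 CPM (SD, n = 4 each). Cck, Scg2 and Adcyap1 were each highest in replicate 2. Vip, Tac2 and Trh had no count.

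Genes linked to synuclein and to Parkinson's disease are of interest because other groups of the series received fibrils. Sncb, which encodes β-synuclein, was at 156, 368, 459 and 498 CPM and so lowest in replicate 1. App and Mapt, which encode the amyloid precursor protein and tau, were at 1115 ± 412 and 1094 ± 709 CPM (SD, n = 4 each), with Mapt at 2108 CPM in replicate 4 and at most 951 CPM in the others. Of genes through which neurons meet fibrils or microglia, Cx3cl1, the fractalkine ligand, was at 172, 718, 732 and 1199 CPM and Prnp, the prion protein, at 590 ± 165 CPM (SD, n = 4). Stress-response genes were expressed as well, with the cell cycle inhibitor Cdkn1a at 562 ± 237 CPM, haem oxygenase Hmox1 at 431 ± 245 CPM and the transcription factor Atf4 at 256 ± 62.4 CPM (SD, n = 4 each). Without replicate 1, Hmox1 averaged 337 CPM.

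Over 13139 genes, log2 CPM correlated between pairs of libraries with Pearson's r of 0.665 to 0.753, a description across genes, which are not independent. At a mean of 5 to 10 CPM the median CV was 95.0%, and the counting error of the smallest library at 5 CPM is 16.0%. It was 38.1% at 50 to 100 CPM and 29.3% at 200 to 400 CPM. For the 3788 genes at 50 CPM or more the median CV was 35.0%, and 27.9% without replicate 1. In each library 96 to 355 genes had no count although the other 3 averaged at least 100 counts, so a 0 for a lowly expressed gene says little.

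Of the 849 genes at 200 CPM or more, the 10 with the highest CV, 103% to 135%, were Luzp2, Vim, Igfbp2, Prdx6, Slc4a4, Fabp7, Ptprz1, Slc7a11, Ccnd1 and Dhrs1. All 10 were highest in replicate 1. Many are known from astrocytes or radial glia, such as Fabp7, a fatty acid carrier of radial glia, Slc4a4, a bicarbonate transporter, and Slc7a11, the cystine transporter. Fabp7 was at 1445 CPM in replicate 1 and 438, 131 and 187 CPM in the others, and Luzp2 at 635 CPM against 37.3 to 114 CPM. Without replicate 1 the CV of Ptprz1 fell from 107% to 12.7%, and that of Slc7a11 from 107% to 18.4%.

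The 10 most even genes at that level were Celf2, Sox11, Gnb1, Kif1b, Fam171b, Myl6, G3bp2, Hnrnpu, Arf1 and Zfr. Celf2, a regulator of splicing, was at 727, 717, 687 and 740 CPM with a CV of 3.09%, and Kif1b, a motor of axonal transport, at 642, 648, 706 and 654 CPM with a CV of 4.41%. Hnrnpu, a nuclear RNA-binding protein, and Arf1, a GTPase of the Golgi, are made by most cell types.

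Replicate 4 also differed from the other libraries, in part in genes that led in replicate 1. It was over 2-fold above the mean of the other 3 for 7.02% of the 3788 genes at 50 CPM or more and under 0.5 times that mean for 10.4%, against 9.40% and 19.5% in replicate 1. Hpca, a calcium sensor of hippocampal and cortical neurons, was at 1074 CPM in replicate 4 and 96.6 to 367 CPM in the others, and Lingo1, a neuronal membrane protein, at 1187 CPM against 134 to 488 CPM. Vim, Prdx6 and Dhrs1, each highest in replicate 1, were lowest in replicate 4, at 37.4, 103 and 214 CPM. Sox9, of astrocytes and precursors, was likewise lowest in replicate 4, at 55.9 CPM against 222 to 655 CPM. In replicate 4, 24 genes that had at least 20 CPM in each other library had no count, among them Cd44, a receptor of astrocyte precursors, and Tubb6, a β-tubulin. The corresponding numbers were 6, 0 and 5 in replicates 1 to 3. These genes were picked from the extremes after their values were seen.

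**Figure D4:**
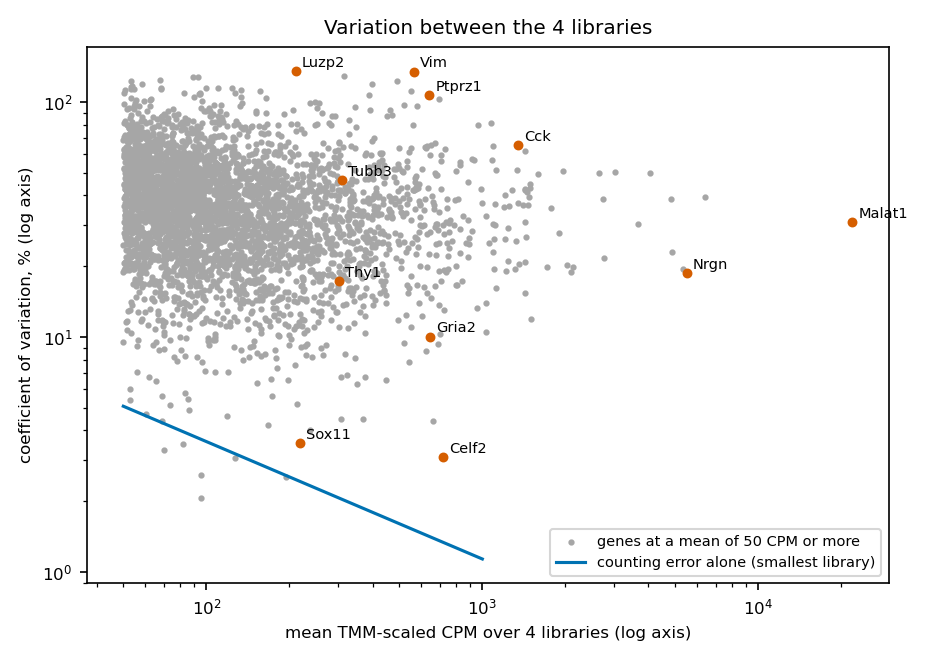
Coefficient of variation (%, log axis) against mean TMM-scaled CPM (log axis) over the 4 libraries of untreated neurons alone, 1 grey point per gene at 50 CPM or more, with selected genes in orange and the counting error of the smallest library as a line. Vim and Luzp2 lie at 135%, Gria2, Thy1 and Nrgn at under 20%, and Celf2 at 3.09%.

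How far this baseline differs from the treated groups was tested with edgeR's quasi-likelihood test over 13139 genes, with a call at a Benjamini-Hochberg adjusted p under 0.05. Against the mean of the other 3 groups, 13 genes passed, 0.0989% of those tested. Of the 9 genes higher in untreated neurons alone (0.0685%), several are neuronal. Thy1 was at 301 ± 51.9 CPM against 85.4 ± 77.4 CPM in the other 12 libraries (log2 difference of others minus untreated alone -2.18 ± 0.29 SE, adjusted p = 0.00216). Camk2n1 was at 2766 ± 602 against 977 ± 824 CPM (-1.76 ± 0.26 SE, adjusted p = 0.00274) and Nrgn at 5499 ± 1032 against 1287 ± 1486 CPM (-2.70 ± 0.46 SE, adjusted p = 0.0357). Among the others were Ensa, Syn2, which encodes a synaptic vesicle protein, Bnip3, Pdpk1 and Uchl1, a neuronal deubiquitinase.

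The 4 genes lower in untreated neurons alone (0.0304%) were Abtb2, Col11a1, a fibrillar collagen, and Cnp and Enpp6, of forming oligodendrocytes. Abtb2 was at 16.6 ± 6.18 CPM against 110.0 ± 56.7 CPM in the other 12 libraries (log2 difference 2.63 ± 0.39 SE, edgeR adjusted p = 0.00274). Cnp was at 104, 78.1, 68.4 and 52.7 CPM and at 77.0 to 1257 CPM in the others (2.38 ± 0.44 SE, adjusted p = 0.0357), so that its ranges overlapped. Of the 13 genes, 4, among them Abtb2, Ensa and Enpp6, did not overlap between the 4 libraries and the 12, as did 63 of all genes tested (0.479%). The number of calls was 45 without replicate 1, 3 without replicate 2, 8 without replicate 3 and 4 without replicate 4. Thy1, Camk2n1 and Abtb2 passed in all 4 of these fits, and Nrgn in none.

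Several gene lists lay to one side of 0 in this comparison. All 20 pan-neuronal genes had a negative log2 difference, with a median of -1.59 against -0.10 over all genes, and 2 of them passed the test. All 14 tested excitatory genes were likewise negative (median -1.87, 1 passed), as were all 25 immediate early genes (median -1.19, 0 passed). All 15 oligodendrocyte precursor genes were positive (median 1.39, 0 passed) and so were the 13 tested genes of forming and myelinating oligodendrocytes (median 1.81, 2 passed). Pan-neuronal genes summed to 5362 to 11872 CPM in untreated neurons alone, to 2417 to 12099 CPM in fibril-loaded neurons alone, and to 1912 to 5550 and 2196 to 3717 CPM in the co-cultures without and with fibrils. Oligodendrocyte precursor genes summed to 1478 to 4014, 1862 to 4525, 4684 to 10053 and 6883 to 11056 CPM in the same order. The part of these shifts in cell type content in the differences of single genes was not tested.

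Ribosomal protein genes, a sign of library composition, also differed by group. They took 1.97% to 2.78% of the counts in untreated neurons alone and 2.71% to 4.36% in the other 12 libraries.

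**Figure D5:**
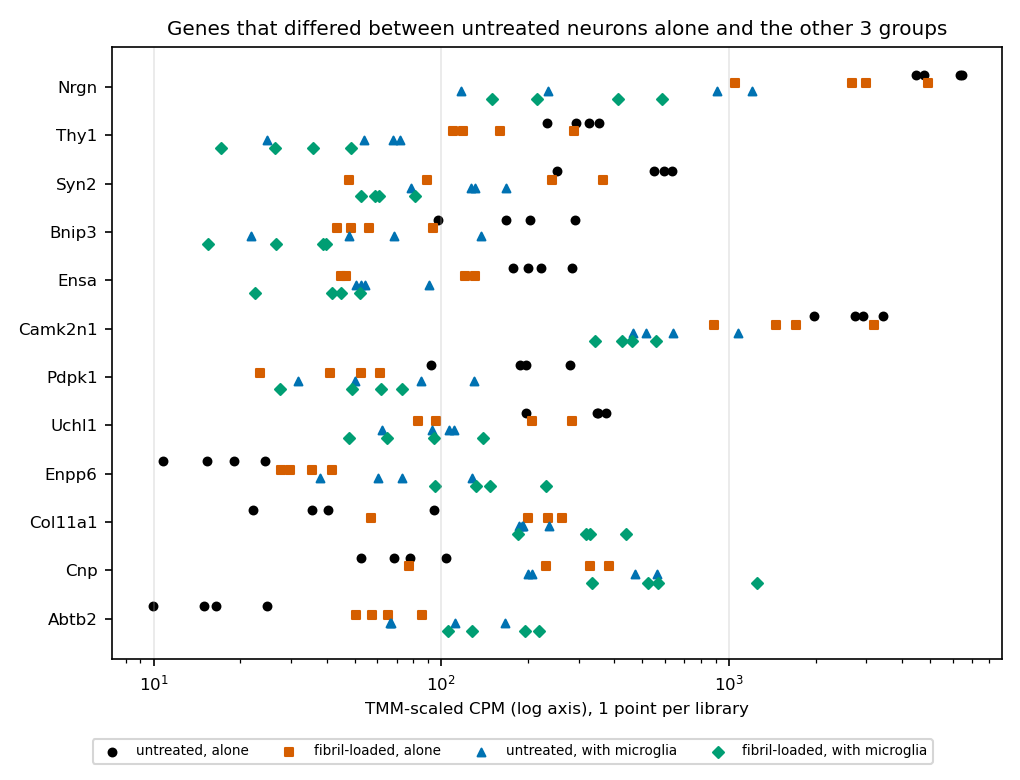
TMM-scaled CPM (log axis, 1 point per library) of genes among the 13 that differed between untreated neurons alone and the mean of the other 3 groups, with the 4 groups of 4 libraries in separate symbols. Thy1 lies at 232 to 353 CPM in untreated neurons alone and at 17.1 to 289 CPM in the other libraries, and Abtb2 at 9.93 to 24.8 CPM against 50.7 to 219 CPM.

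Against fibril-loaded neurons alone, the group most alike in culture, 0 of 13139 genes passed edgeR's test (0.0%), with 909 at an unadjusted p under 0.05 (6.92%). limma-voom also called 0 and DESeq2 173. The 5 genes with the smallest p did not pass: Snhg9, a noncoding RNA, Taldo1, of the pentose phosphate pathway, Abtb2, Ankrd40 and Col11a1, with edgeR adjusted p of 0.371 to 0.446. Taldo1 was at 266 ± 76.9 CPM in untreated neurons and 889.9 ± 366 CPM in loaded ones (SD, n = 4 each). All 20 pan-neuronal genes had a negative difference (median -0.80) and 23 of 24 astrocyte genes a positive one (median 0.71), beside a median of -0.06 over all genes. Astrocyte genes summed to 25907 to 84662 CPM in the loaded group, overlapping the 15336 to 33473 CPM of untreated neurons.

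Against untreated neurons with microglia, 16 genes passed edgeR's test (0.122%), 9 higher (0.0685%) and 7 lower (0.0533%) with microglia. With library totals in place of TMM scaling the split was 45 higher and 5 lower, and the median log2 difference over all genes moved from -0.02 to 0.19. Among the precursor genes of oligodendrocytes, Pdgfra was at 86.7 ± 24.3 CPM alone and 441 ± 76.4 CPM with microglia, and Lhfpl3, Sox8 and Olig1 passed as well, 4 of 15. Atp6v0c, a subunit of the vesicular proton pump, was at 1032 ± 108 CPM alone and 378 ± 80.8 CPM with microglia (log2 difference -1.45 ± 0.28 SE, edgeR adjusted p = 0.0408). The number passing was 39 without replicate 1 of untreated neurons alone and 0, 0 and 1 without replicates 2, 3 and 4. The 3 comparisons share the 4 libraries of untreated neurons alone.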

How the data were processed

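Gene expression was measured in 16 libraries, 4 per group, and the 4 of untreated neurons alone are described. The values used were raw counts for each gene symbol, as the authors deposited them. The deposited table of normalized values was not used here. STAR, Partek, DESeq2 and the assembly mm10 are named in the submitters' processing notes, without versions. The annotation, the counting tool, strand handling and whether molecular identifiers were read are not given in the sources used here, so reads of overlapping genes or near-identical copies may be exchanged and PCR copies may be counted.

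TMM factors and library totals came from edgeR 4.0.16 (R 4.3.3) over all 16 libraries and the genes that passed filterByExpr, Rn45s among them. With these totals, CPM was then computed for all genes, also those that did not pass. Comparisons used its robust quasi-likelihood test after filterByExpr (minimum count 10, minimum total 15, leaving 13139 genes), with Benjamini-Hochberg adjusted p under 0.05. On simulated counts the test was required only to give the right direction for most of the changed genes. False calls and the share of changes found had no such requirement and are not reported here. Alternatives were DESeq2 1.42.0, limma-voom (limma 3.58.1), library totals, no filter, a replicate block, Rn45s left out, and each library left out in turn. Python 3.11.15 with pandas 2.3.3 and matplotlib 3.10.9 made tables and plots. Depth was 7881788 to 13986374 counts, and the floor of 3 counts covers counting error only. Gene symbols matched 1 GENCODE gene in 96.2% of cases.

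The group, its markers and the 42 gene lists (813 entries, 759 measured) were chosen with earlier results of these data known, so lists carry no test. Genes named were the 30 most abundant, up to 8 of each list, receptor and channel genes at 20 CPM or more, members under 1 CPM of cell types that should be absent, the 10 highest and 10 lowest CVs at 200 CPM or more, called genes (the 5 smallest p where fewer than 5 passed) and the markers. Others, such as Rbfox3, Gfap, Aqp4, Hpca, Lingo1 and receptor genes under 20 CPM, were named after their values were seen. Some genes that the rule names are not reported here.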

Additional observations from a re-analysis of the deposited data

Results flagged for a closer look

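In a group of 4, a library was marked when its gap to the nearest other took more of the whole range than Dixon's critical value for 4 samples, which chance alone does in about 1 in 20 groups. Of 49 measures of the libraries and lists, 3 were marked. Replicate 1 had the lowest pan-neuronal sum, 5362 CPM, and the highest oligodendrocyte precursor sum, 4014 CPM, and replicate 3 the lowest sum of ependymal, choroid and blood genes, 1.54 CPM. Of 333 named genes, 46 were marked, 29 of them in replicate 1. This count cannot be set against the chance rate, because some genes were named for their spread or after their values were seen, and a gene with counts in 1 library is always marked.

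In replicate 1 these genes stood above the other 3 libraries: Aldoc at 2118 CPM, Vim at 1693, Ptprz1 at 1675, Ccnd1 at 1630.5, Prdx6 at 1385, Slc7a11 at 1009, Kcnj10 at 938, Rorb at 828, Olig1 at 804, Luzp2 at 635, Nfia at 468, Zbtb20 at 94.3, Cacng8 at 62.2 and Ugt8a at 61.3 CPM. Zfr, at 338 CPM, was marked only because the other 3 values were so close. Those that stood below the others there were Uchl1 at 198 CPM, Clcn4 at 83.4, Gabrb2 at 34.8 and Nr4a2 at 22.4 CPM. Genes with few or no counts elsewhere made up the rest in replicate 1: Th at 7.85 CPM, Fcrls at 6.91, Chrna5 at 5.27, Igf2 at 4.57, Tagln at 4.22, C1qb at 3.51, Tyrobp at 3.16, Trem2 at 3.04, Ptprc at 2.11 and Pecam1 at 0.937 CPM.

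In replicate 2 the marked genes were Cx3cr1 at 10.6 CPM, Chrm3 at 7.74, Acta2 at 7.05, Ndnf at 5.08, Flt1 at 2.31 and Grin3b at 1.27 CPM, all highest there. In replicate 3 they were Hrh2 at 18.0 CPM, Csf1r at 6.94 and Chrm2 at 2.06, all highest there, and Foxj1 at 0. In replicate 4, Tubb2a at 1824 CPM, Chac1 at 271, Cckbr at 137, Sstr1 at 65.8, Adra1b at 33.7 and Glra2 at 3.16 CPM were highest, and Hmgb2 was lowest at 37.2 CPM.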

How the results depend on the processing

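The number of genes that differed from the mean of the other 3 groups was 13, and it depended on the test. It was 371 with DESeq2, 401 with limma-voom, 31 with no filter and 119 with a replicate block, and 16 with library totals and 13 with Rn45s left out. Without 1 library of untreated neurons alone it was 3 to 45. Against fibril-loaded neurons alone it was 0 in every alternative except DESeq2, which called 173. Against untreated neurons with microglia it was 16, and 295 with DESeq2, 50 with library totals, 76 with limma-voom, 26 with no filter, 38 with the replicate block, 16 with Rn45s left out, and 0 to 39 without 1 library. The cause was not tested. The block stands for runs of neighbouring library codes, and the deviations of libraries of 1 run correlated by 0.04 on average (-0.11 to 0.22), against -0.01 for other pairs. Each run holds 1 library of each group. The labels name no shared batch, so the main comparisons used no block. Whether the runs pair the samples was not tested, and if they do, the main comparisons ignore that pairing. As a hint from the data, 9 of the 16 libraries correlated best with a library of their own run. Of 130 settings over the 13 named genes, 100 kept the call, 30 lost it and 0 reversed.

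Of 150 settings for levels, 148 lay within 1 SD. Many of these settings leave out 1 of the 4 libraries, which cannot move a mean by as much as 1 SD. For those settings the outcome was fixed in advance, so the count is no measure of robustness. The AMPA receptor sum was 1923 CPM with Rn45s left out of the total, and the 100 most abundant genes took 33.9% with Rn45s kept among them. The median CV was 30.5% at 200 CPM or more and 35.0% at 50 CPM or more. By the SD of log2 CPM, 4 of the 10 most and 10 of the 10 least variable genes were shared. With 4 libraries and a median CV of 95.0% at 5 to 10 CPM, levels under about 10 CPM are imprecise.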

Other observations

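Cytoskeletal transcripts summed to 22529, 27716, 26184 and 32285 CPM in replicates 1 to 4 over 36 genes. Map1b, a microtubule protein of growing axons, was at 348, 1044, 1407 and 1678 CPM, while Tuba1a, an α-tubulin of young neurons, was even, at 1467, 1444, 1134 and 1662 CPM. Nefl and Nefm, the light and medium neurofilament chains, averaged 671 and 535 CPM, and the heavy chain Nefh, typical of mature axons, 32.0 CPM. Tubb2b exceeded Tubb2a in all 4 libraries, by 1.37 to 4.06 times, with the limit on the split of reads between tubulin genes given above.

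Genes of fibril uptake and lysosomes differed in which library was highest. Lrp1, an uptake receptor for tau and synuclein, was at 217, 236, 204 and 107 CPM, and the heparan sulphate proteoglycan Sdc4 at 302, 132, 111 and 33.5 CPM. The lysosomal proteases Ctsb and Ctsd were at 502 and 445 CPM in replicate 1 and at 170 to 285 and 118 to 231 CPM in the others. Cd47, a signal that restrains engulfment, was lowest in replicate 1, at 71.9 CPM against 185 to 253 CPM. Chac1 and Asns, targets of the amino acid stress response, were highest in replicate 4, at 271 and 158 CPM against at most 64.0 and 96.1 CPM.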
